A study of Mus musculus with 5 samples.

Results

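Among the Runx3-bound regions of IL-2-activated natural killer cells (NKC), 1332 lay away from promoters and carried an AP-1 site at their centre. They were the Runx3 peaks whose centre was at least 1 kb from every annotated transcription start site (TSS) and whose central 200 bp held TGACTCA or TGAGTCA, which are the same 7-base element read on either strand. They made up 11.4% of the 11676 Runx3 peaks and 15.3% of the 8726 distal peaks, which left 7394 other distal peaks for comparison. Only positions and sequence chose them, so the presence of AP-1 is not a result, whereas H3K4me1, RUNX sites, spacing and neighbouring genes are.

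AP-1 is a dimer of basic leucine zipper proteins, mainly of the Jun and Fos families with Batf, Maf and Bach relatives, and it carries receptor and kinase signals to enhancers in activated lymphocytes. Its element is called TRE, and it is close to a palindrome. Runx3 is a runt-domain factor of cytotoxic lymphocytes that binds the RUNX element, here any of TGTGGT or TGTGGC or TGCGGT or TGCGGC on either strand. H3K4me1 is a histone mark of enhancers, often lowest at the very centre where factors displace the nucleosome.

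The chromatin came from splenic NKC of ICR mice, purified by negative selection and grown for 7 days with 1000 u/ml of human recombinant IL-2. No genotype, allele or treatment separates the libraries, which were 2 Runx3 immunoprecipitates, 2 made with non-immune serum (NIS) and 1 for H3K4me1. The paper describes NKC from both wild-type and Runx3-/- spleens, and its ChIP methods name no genotype. Peaks were called on the joined Runx3 reads against NIS, so the values that follow have no replicate error, and their intervals cover counting error only. Without an expression measurement here, the cell type was not checked against its markers, and no peak height was at hand to rank regions. The paper reports sorting for a surface marker after negative selection and, at the end of culture, nearly all cells positive for an NKC receptor. Peaks of 1 genome are not independent replicates, and each p-value describes these lists.

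The element itself had a clear place in the peaks. In distal peaks AP-1 matches were found at 0.850 per kb within 100 bp of the centre, against 0.211 per kb at 800 to 1000 bp, a ratio of 4.02. In the 2950 proximal peaks the same ratio was 1.4, and 145 of them (4.92%, 95% Wilson interval 4.19 to 5.76%) held a central AP-1 match, against 15.3% (14.5 to 16%) of distal peaks. The RUNX element rose towards the centre of distal peaks as steeply as AP-1, with a ratio of 4.02.

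**Figure D1:**
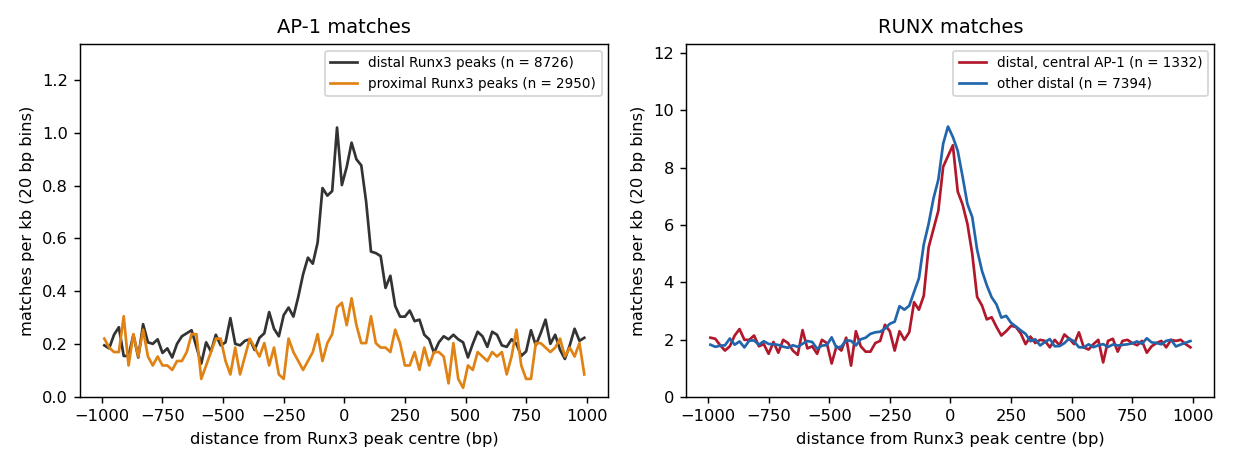
Matches per kb in 20 bp bins against the distance from the Runx3 peak centre in bp, for AP-1 in distal and proximal peaks (left) and for RUNX in distal peaks with and without a central AP-1 match (right). AP-1 peaks at the centre of distal peaks and much less at that of proximal peaks, and the RUNX curve of the peaks with central AP-1 is the narrower of the pair beyond 100 bp.

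The sequences below show what such a region looks like, in lower case with every AP-1 and RUNX match in capitals, read 5′ to 3′ on the plus strand of mm9. They come from 8 of the 10 gene groups described further on, and are up to 2 members per group that lay nearest to a gene of it, among those that overlapped H3K4me1, touched no exon and held a RUNX match within 50 bp of AP-1. Killing and its receptors are represented by Tigit, an inhibitory receptor of NK and T cells with a pair of such peaks upstream.
Tigit (chr16:43698044-43698128): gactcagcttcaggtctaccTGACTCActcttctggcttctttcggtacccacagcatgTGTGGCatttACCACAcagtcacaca
Tigit (chr16:43702367-43702428): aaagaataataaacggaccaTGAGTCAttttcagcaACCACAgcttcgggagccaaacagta
Cytokine genes gave Ccl5, a chemokine stored in cytotoxic cells, and Il10, an anti-inflammatory cytokine.
Ccl5 (chr11:83340762-83340830): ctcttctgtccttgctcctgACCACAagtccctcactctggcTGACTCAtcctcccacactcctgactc
Il10 (chr1:132922626-132922696): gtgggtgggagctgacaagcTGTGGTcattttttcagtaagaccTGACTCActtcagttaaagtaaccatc
Receptor genes gave Il21r and Tgfbr2, and the TNF receptor family gave Tnfrsf9 (4-1BB, a costimulatory receptor) and Tnfrsf1b.
Il21r (chr7:132751039-132751117): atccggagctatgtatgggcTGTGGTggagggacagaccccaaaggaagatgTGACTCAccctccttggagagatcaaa
Tgfbr2 (chr9:116094187-116094269): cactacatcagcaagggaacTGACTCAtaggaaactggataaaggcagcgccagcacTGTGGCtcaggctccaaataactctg
Tnfrsf9 (chr4:150291618-150291693): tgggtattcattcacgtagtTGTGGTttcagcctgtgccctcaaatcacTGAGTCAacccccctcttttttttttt
Tnfrsf1b (chr4:144840054-144840138): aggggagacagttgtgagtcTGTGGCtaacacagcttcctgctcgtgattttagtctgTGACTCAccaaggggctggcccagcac
Adhesion genes gave Itgae and Itga2, which encode the integrins CD103 and CD49b.
Itgae (chr11:72909152-72909220): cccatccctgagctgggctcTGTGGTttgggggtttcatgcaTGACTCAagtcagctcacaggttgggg
Itga2 (chr13:115706678-115706735): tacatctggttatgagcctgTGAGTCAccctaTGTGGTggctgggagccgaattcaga
Among transcription factors stood Runx1, a paralog of Runx3, and Ikzf1 (Ikaros), and among AP-1 genes Junb and Maff.
Runx1 (chr16:92852689-92852776): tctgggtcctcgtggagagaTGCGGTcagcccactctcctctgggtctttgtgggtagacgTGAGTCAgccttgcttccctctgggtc
Ikzf1 (chr11:11616167-11616226): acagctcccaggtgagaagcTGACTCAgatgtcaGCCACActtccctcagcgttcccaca
Junb (chr8:87505193-87505246): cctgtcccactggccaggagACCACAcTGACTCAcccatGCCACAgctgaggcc
Maff (chr15:79184086-79184142): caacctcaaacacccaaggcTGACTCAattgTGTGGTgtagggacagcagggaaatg
Kinase and lipase genes that act upstream of AP-1 gave Map2k3 and Plcg2.
Map2k3 (chr11:60749042-60749093): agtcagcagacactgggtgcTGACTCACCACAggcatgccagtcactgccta
Plcg2 (chr8:119919192-119919248): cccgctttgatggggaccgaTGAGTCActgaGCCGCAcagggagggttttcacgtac
The distance between the pair of matches ran from 35 bases at Runx1 to 1 base at Junb, and at Map2k3 the elements shared a base. At Junb the AP-1 match lay between 2 RUNX matches.

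Of the 1332 members, 1237 held 1 AP-1 match in the window, 84 held 2 and 11 held 3 or more, for 1444 matches in all. Their median width was 664 bp (25th to 75th percentile 569 to 756 bp) against 692 bp (579 to 813 bp) in other distal peaks. The median distance to a TSS was 15.6 kb in members and 13.7 kb in other distal peaks, and the median GC content of the centre was 50% in both. Near the limits of the rule, the member closest to a TSS was 1025 bp away, and the farthest proximal peak with central AP-1 lay at 983 bp. In 106 members every AP-1 match began or ended within 10 bp of the edge of the window, and 85 other distal peaks had a match starting within 10 bp outside it. Altogether 1329 of the other distal peaks (18%) held AP-1 elsewhere in the peak.

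Members were found on every autosome and at all distances from genes. On the 19 autosomes, the share of distal peaks that were members ran from 12.3% on chromosome 6 to 18.4% on chromosome 8, and chromosome X held 6 members of 43 distal peaks. Members accounted for 14.7% of distal peaks at 1 to 5 kb from a TSS (293 of 1999), 15.0% at 5 to 50 kb (800 of 5322) and 17% beyond 50 kb (239 of 1405). The share beyond 50 kb was 17.9% (95% Wilson interval 16 to 20.1%) of members and 15.8% (15.0 to 16.6%) of other distal peaks, which did not pass Fisher's exact test (odds ratio 1.17, Fisher's adjusted p = 0.121). Of members, 51.6% were centred in a protein-coding gene against 53.2% of other distal peaks (Fisher's adjusted p = 0.396), and 38 (2.85%) were centred in an exon. Another Runx3 peak lay within 10 kb of 34.8% of members and 35.2% of other distal peaks (Fisher's adjusted p = 0.765). Another member lay within 10 kb of 74 members (5.56%), and the median distance to the next member was 292 kb. Members are only 15.3% of distal peaks. The share for other sets of as many distal peaks was not computed, so 5.56% cannot be read as low or high.

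Members were narrower than other distal peaks. Of members, 43.5% (40.8 to 46.1%) were wider than the median distal peak, against 51% (49.9 to 52.2%) of the others (odds ratio 0.738, Fisher's adjusted p = 2.85e-06, two-sided Fisher's exact test with Benjamini-Hochberg adjustment over 7 peak features). In 4 width classes of equal size, from narrow to wide, members were 16.5, 18, 15.9 and 10.6% of distal peaks, and the low share was that of peaks above 803 bp. Against distal peaks with no AP-1 match anywhere, 43.5% of members compared with 47.4%, and the call was lost (odds ratio 0.852, Fisher's adjusted p = 0.0637). This limit was set on the comparison peaks only, and it moved their share from 51 to 47.4% while members stayed as they were. It therefore cannot tell why the widths differ, which was not tested.

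Most members met the enhancer mark. An H3K4me1 peak overlapped 747 members (56.1%, 53.4 to 58.7%) and 58.2% (57.0 to 59.3%) of other distal peaks, which did not pass the test (odds ratio 0.919, Fisher's adjusted p = 0.290). The mark was scarcer at the exact centre. The centre lay inside an H3K4me1 peak in 416 members (31.2%, 28.8 to 33.8%) and in 35.0% (33.9 to 36.1%) of the others (odds ratio 0.842, Fisher's adjusted p = 0.0248). At 500 bp to either side of the centre the shares were 42.0 and 39.3% in members and 40.2 and 39.3% in the others, and 225 members (16.9%) were centred between a pair of H3K4me1 peaks within 2 kb. The difference at the centre was lost under 5 of 8 other settings. In members of 500 to 900 bp it was 32.4% against 35.4% (odds ratio 0.877, Fisher's adjusted p = 0.257). Against peaks without any AP-1 match, a limit again set on the comparison peaks only, the Fisher's adjusted p was 0.0883. Of the remainder, 348 members (26.1%) were more than 5 kb from any H3K4me1 peak.

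**Figure D2:**
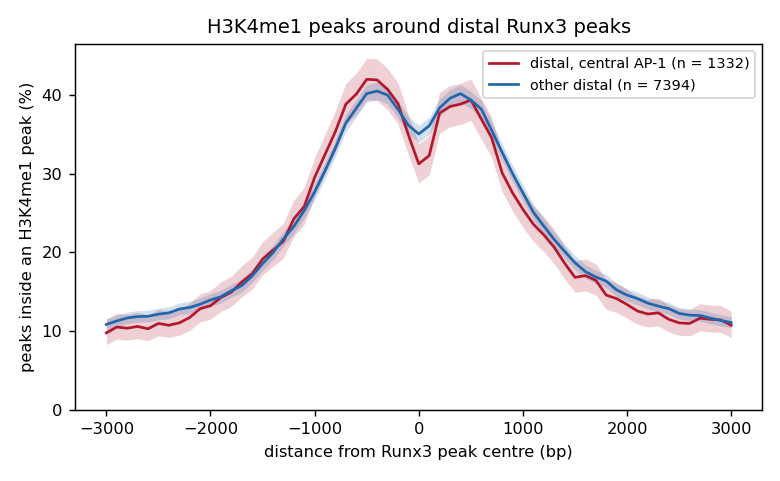
Share of distal Runx3 peaks (in %) that lay inside an H3K4me1 peak at each distance from the Runx3 centre in bp, for 1332 peaks with central AP-1 and 7394 other distal peaks, with 95% Wilson intervals as bands. Both curves dip at the centre, to 31.2% with central AP-1 and 35.0% without, and stand at 42.0 and 40.2% at 500 bp before it.

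The RUNX element stood in the centre of most members, and its share there did not pass a test against other distal peaks. It was found in the central 200 bp of 1051 members (78.9%, 76.6 to 81.0%) and of 79.9% (79.0 to 80.8%) of other distal peaks (odds ratio 0.939, Fisher's adjusted p = 0.595, Fisher's exact test over 16 motifs). Bases in an AP-1 match were masked in members only, and with the other distal peaks masked at the same positions their share was 77.4%, which turned the direction and did not pass either (odds ratio 1.09, Fisher's adjusted p = 0.465). TGTGGT was present in 60.7% of members, TGTGGC in 32.6%, TGCGGT in 7.21% and TGCGGC in 4.05%. Presence does not count repeated matches. Without masking, RUNX matches within 100 bp of the centre stood at 6.77 per kb in members and 7.72 per kb in other distal peaks. The whole peak held a median of 2 RUNX matches in members and 3 in the others. These densities and medians were not tested. RUNX matches fell off more quickly from the centre in members. At 100 to 200 bp from the centre, outside the window used to choose them, 41.4% of members (38.8 to 44.0%) and 49.6% (48.5 to 50.7%) of other distal peaks held a RUNX match, which gave 0.717 as odds ratio (Fisher's adjusted p = 4.69e-07). This comparison was chosen after the profile had been seen. It kept its direction and its call under all 8 alternatives tried, with odds ratios of 0.714 to 0.848, among them peaks of 500 to 900 bp (40.4 against 48.2%). The 0.848 came from the central 400 bp. There the window that chose members covers the stretch from 100 to 200 bp, so this setting is no separate check. In the main comparison at 100 to 200 bp, none of the other 15 motifs passed. In the whole peak, 93.9% of members (94.1% without masking) and 96.6% of other distal peaks held a RUNX match (odds ratio 0.538, Fisher's adjusted p = 0.000117).

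The same masking was used for the remaining motifs. ETS factors bind a GGAA core and are frequent partners of RUNX in lymphocytes, and their motif (AGGAAG or CGGAAG or AGGAAA or CGGAAA) was the 1 of 16 motifs that passed, which is 6.25% of those tested. It was in 53.9% of members (51.2 to 56.6%) and 58.7% (57.6 to 59.8%) of other distal peaks (odds ratio 0.822, Fisher's adjusted p = 0.0180). Masking removed on average 7.59 of the 200 bases from members and none from the others. When the other distal peaks were masked at the same positions, ETS was in 56.3% of them, and the call was lost (odds ratio 0.908, Fisher's adjusted p = 0.338). Under that equal masking the E-box (CAGCTG or CAGGTG), bound by E proteins and related basic helix-loop-helix factors, passed in the other direction. It was in 29.8% of members (27.4 to 32.3%) and 25.6% (24.7 to 26.7%) of other distal peaks (odds ratio 1.23, Fisher's adjusted p = 0.0265), with CAGCTG in 17.1 against 14.0%. With masks assigned to other comparison peaks it was 29.8 against 25.9% (Fisher's adjusted p = 0.0478), and without equal masking it did not pass (Fisher's adjusted p = 0.478).

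The motifs of the other lymphocyte factors did not pass with either masking. With equal masking, NFAT, the calcium-activated factor that often binds with AP-1 (TGGAAA), was in 13.7% of members and 13.7% of other distal peaks. T-box (GGTGTGA), the element of T-bet and Eomes, was in 5.93 and 6.74%, STAT (TTCNNNGAA), the element of the factors that IL-2 activates, in 7.28 and 6.86%, and NF-kB (GGG and TTTCC 2 bases apart) in 1.5 and 1.05%. IRF (the word GAAA repeated with 2 bases between) was in 1.88 and 2.50%, the motif of Gata factors, which reads AGATAA, in 8.56 and 7.05%, TCF (CTTTGAA) in 4.8 and 3.75% and CEBP (TTGCNNAA) in 7.66 and 6.42%. CRE (TGACGTCA), the longer element of the ATF and CREB factors, was in 3 members (0.225%) and in 0.473% of the others. The remaining motifs were SP (GGGCGG, 4.65 and 5.27%), KLF (CCACACCC, 3.75 and 3.58%), NR4A (AAAGGTCA, 1.65 and 1.81%) and FOX (TGTTTAC, 2.25 and 2.31%). All words were searched on both strands, and NFAT and ETS share letters, as do KLF and RUNX. A p above the threshold does not show that these shares are equal, and for motifs as rare as CRE the intervals were wide (0.0766 to 0.660% in members).

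**Figure D3:**
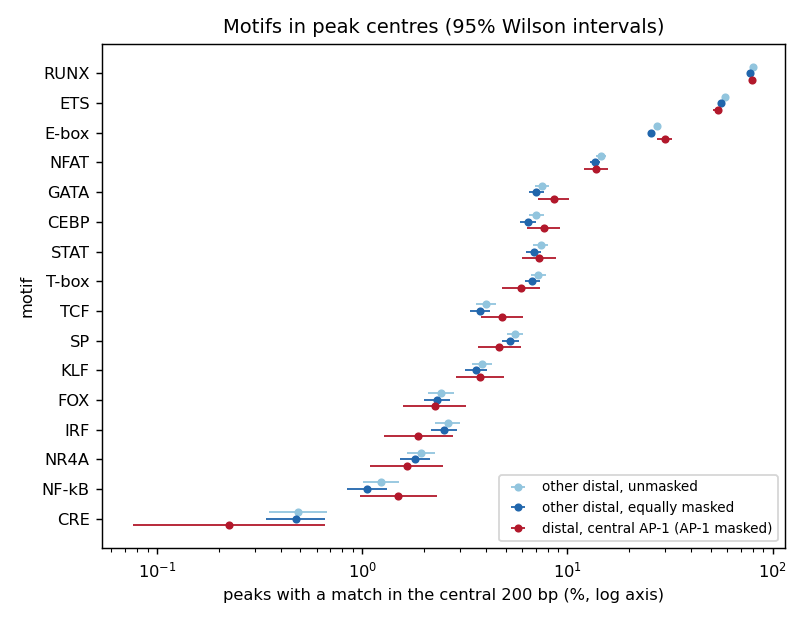
Share of peaks (in %, log axis) with each of 16 motifs in the central 200 bp, with 95% Wilson intervals, for peaks with central AP-1 (AP-1 letters masked), other distal peaks as they are, and other distal peaks masked at the same positions. RUNX is at 78.9% with central AP-1, masking moves ETS in the other distal peaks from 58.7 to 56.3%, and the E-box is at 29.8% with central AP-1 against 25.6% with equal masking.

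The same dependence was seen over all 2080 words of 6 letters. With AP-1 and 5 bases on both sides masked in members only, 13 words (0.625%) passed, and all were scarcer in members. The 10 with the smallest p were ACAGGA and ACTTCC, followed by CACTTC and ACAAAC and AACCAC, then GGTGTA and AGGAAG, and then CACATC and CCTGTA and GTGAGA. The word ACAGGA led with 22.1% of members against 28.6% of other distal peaks (Fisher's adjusted p = 0.00166), and ACTTCC, an ETS word, followed with 18.5 against 24.5% (Fisher's adjusted p = 0.00220). AACCAC, the reverse complement of GTGGTT, is part of a RUNX element and was in 37.7 against 43.9% (Fisher's adjusted p = 0.0120). Here masking took 18.3 of 200 bases from the average member. With the comparison peaks masked at the same positions, 0 words passed by the same Fisher's exact test with Benjamini-Hochberg adjustment, with 120 at an unadjusted p under 0.05, and 0 passed again with the masks assigned differently, with 121 under 0.05.

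AP-1 and RUNX stood at many distances from each other. A RUNX match lay within 50 bp of an AP-1 match in 806 members (60.5%, 57.9 to 63.1%), in 1149 pairs of matches. The share at the same positions in other distal peaks was not computed, so 60.5% cannot be read as an excess. From 1 to 50 bases between the elements, each spacing was seen in 12 to 38 pairs, with a median of 22. Spacings of 23, 3 and 14 bases were the most frequent, with 38, 35 and 34 pairs. AP-1 followed RUNX on the strand of the RUNX element in 611 pairs and preceded it in 538. Split by order and by the middle letter of AP-1, the 200 arrangements of 1 to 50 bases held 0 to 14 pairs each, with a median of 5. The arrangement with most pairs of all, at 19, was a shared base with TGACTCA after RUNX. The letters allow this only where AP-1 follows a RUNX word that ends in T, and it was written TGTGGTGACTCA in 18 cases, TGTGGTGAGTCA in 3 and TGCGGTGACTCA in 1. Elements that touched without sharing a base made up 4 pairs.

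**Figure D4:**
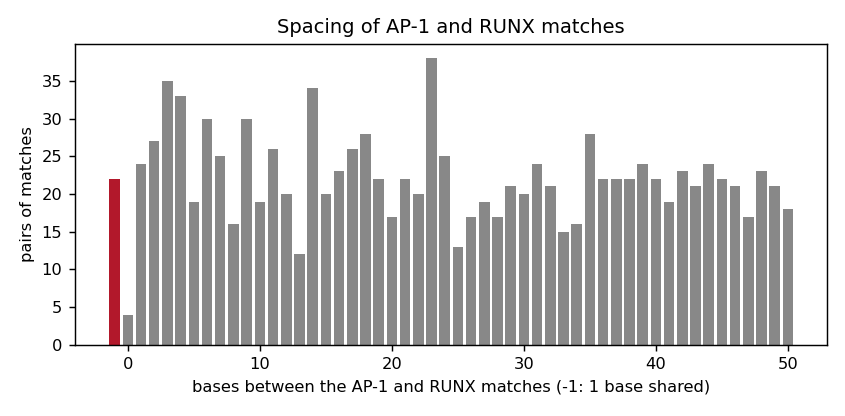
Number of pairs of AP-1 and RUNX matches in the members against the bases between them, from 1 shared base (-1, red, 22 pairs) to 50. Counts stay between 12 and 38 from 1 base on, with 4 pairs at 0.

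In the 497 members with exactly 1 match of both kinds in the central 200 bp, the strand that read as RUNX also read TGAGTCA in 242 (48.7%, 44.3 to 53.1%, exact binomial test, two-sided, p = 0.590). AP-1 was the nearer to the centre in 240 of them (48.3%, 43.9 to 52.7%, exact p = 0.473), with median distances of 44.5 bp for AP-1 and 42 bp for RUNX. Both values depended on the RUNX letters. With TGTGGT alone, 559 members qualified, and the strands agreed in 310 (55.5%, 51.3 to 59.5%, exact p = 0.0111). AP-1 was nearer in 249 of them (44.5%, 40.5 to 48.7%, exact p = 0.0111). In the central 400 bp AP-1 was nearer in 226 of 528 members (42.8%, 38.6 to 47.1%, exact p = 0.00108), with median distances of 70.5 bp and 60 bp. With the central 100 bp the share was 50.4%. The rule chose members by the place of AP-1, and both matches had to lie in its window. The window thus bounds both distances, and the test cannot tell which element is the more central in general. The p-values of these strand and distance tests were not adjusted over the settings.

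The letters beside AP-1 were compared with 6089 AP-1 matches in the 27383 H3K4me1 peaks that met no Runx3 peak. GTGANTCAC, with G before and C after the element, took up 11.8% (10.2 to 13.5%) of the 1444 matches in members and 9.57% (8.86 to 10.3%) of those in H3K4me1 peaks (odds ratio 1.26, Fisher's adjusted p = 0.0438, Fisher's exact test over 6 contexts). CTGANTCAG was scarcer in members, at 9.63% (8.21 to 11.3%) against 12.2% (11.4 to 13.0%), which gave 0.768 as odds ratio (Fisher's adjusted p = 0.0375). GCTGANTCA on either strand, which holds only 1 side of the extended element of Maf factors, was in 18.4 and 18% (Fisher's adjusted p = 0.733). The full Maf element was not searched. ATGANTCAT was in 5.61 and 4.94% (Fisher's adjusted p = 0.634). The composite elements of AP-1 with interferon regulatory factors, which Batf and Irf4 or Irf8 bind together, were rare in both. The form with 4 bases between the elements was in 1.45 and 1.18% (Fisher's adjusted p = 0.639) and the joined form in 2.01 and 1.79% (Fisher's adjusted p = 0.702). Against 848 AP-1 matches more than 200 bp from the centre of distal Runx3 peaks, 0 of the 6 contexts passed the same test. GCTGANTCA was the 1 with an unadjusted p under 0.05 (18.4 against 14.7%, Fisher's adjusted p = 0.149).

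Genes were given to members with GREAT domains, each of which stretches from the gene towards its neighbours by up to 1000 kb. Members fell in the domains of 2090 of 22350 protein-coding genes (9.35%), which is 28.2% of the 7411 genes with any distal Runx3 peak. Of these, 1740 held 1 member, 262 held 2 and 88 held 3 or more. A member near a gene is a position, with no measure here of its effect on that gene, and 1223 members lay in the domains of 2 or more genes. Longer domains collect more peaks: the median domain was 89.5 kb over all genes, 158 kb for genes with a distal peak and 222 kb for genes with a member.

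The gene with the most members was Runx1, a paralog that recognises the same element as Runx3. It had 7 members among 27 distal peaks. Of these, 3 lay inside the gene, at 7.35, 77.7 and 172 kb from its start, and 4 lay upstream, at 26.4, 36.7, 407 and 418 kb, and 5 of the 7 overlapped H3K4me1. Bcl2l11, which encodes the pro-apoptotic protein Bim, had 6 members among 25 distal peaks, between 67.2 kb upstream and 419 kb downstream, and 5 of them overlapped H3K4me1. The predicted gene Gm355 had 5, all of them shared with Bcl2l11. Zfp36l2, an RNA-binding protein that destabilises messages, had 5 members among 21 distal peaks, of which 4 were shared with Haao, an enzyme of tryptophan breakdown. Chsy1, a chondroitin sulfate synthase, had 5 among 14, of which 4 were shared with Gm10974. Errfi1, an inhibitor of ErbB receptors, had 4 among 10, all upstream by 52.0 to 161 kb. Irf2bp2, a corepressor, had 4 among 16, between 130 and 289 kb upstream, and all 8 peaks of Errfi1 and Irf2bp2 overlapped H3K4me1. Mctp2, a membrane protein with C2 domains, had 4 among only 6 distal peaks, 3 of them inside the gene, and 1 of the 4 overlapped H3K4me1. The domains of these 10 genes spanned 252 to 1311 kb, above the median of all genes. Neighbours outside the 10 share members too. By position, the 4 of Errfi1 also lay in the domain of Slc45a1, and the 4 upstream of Runx1 in that of Setd4. Sharing with further neighbours is not listed, here or for the groups below, so a gene without a named neighbour need not hold its members alone.

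In all, 10 groups of genes related to NKC and to AP-1, with 331 annotated genes, were counted. Of these genes, 94 (28.4%) had a member in their domain against 9.35% of all genes, and 36.2% of the 260 with a distal Runx3 peak against 28.2% of all such genes. A gene with more distal peaks has more chances to hold a member. These shares of genes therefore do not measure how common central AP-1 was among peaks. By peaks, the groups ran from 8.45% (trafficking and adhesion) to 25.4% (AP-1 family and relatives), on both sides of the 15.3% of all distal peaks. The median domain of the grouped genes was 129 kb. The 141 distinct peaks in these domains overlapped H3K4me1 in 95 cases (67.4%), 85 held RUNX within 50 bp of AP-1, and 10 held no RUNX match. Over all 1332 members the same counts were 747 (56.1%), 806 (60.5%) and 78. The H3K4me1 share of other distal peaks in the same domains was not computed. No test was made on gene groups, and each count is read beside these shares.

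With these domains, the genes of the AP-1 family and its relatives were the group with the highest share of central AP-1 among their peaks. Of 15 genes with a distal Runx3 peak, 8 (53.3%) had a member, and 15 of the 59 distal peaks in their domains (25.4%) were members, against 15.3% of all distal peaks. Fosb, a Fos family protein, had 3 members among its 4 distal peaks, at 6.66, 22.1 and 23 kb upstream, all with H3K4me1 and the last with 2 bases between AP-1 and RUNX. Maf, a large Maf factor, had 3 among 15, at 89.3 kb and 965 kb downstream and 317 kb upstream, none with H3K4me1. Bach2, a repressor that competes for AP-1 sites, had 2 among 3, at 58.9 and 112 kb upstream, and both also fall in the domain of Map3k7. Jun had 2 among 9, at 16.5 kb downstream and 126 kb upstream, without H3K4me1. Maff had 2, at 1.18 kb upstream and 6.21 kb inside the gene, both with their centre in H3K4me1. Junb, Batf3 and Fosl2 had 1 member each, and that of Junb lay 2.56 kb upstream. With the nearest gene within 50 kb in place of domains, 5 of 14 AP-1 genes had a member and 6 of 29 distal peaks (20.7%) were members, beside 14.6% over all genes.

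The order of the first groups depended on how genes were assigned. Survival and proliferation genes came next by domains, with 21 of 96 distal peaks (21.9%) and a member near 11 of 23 genes (47.8%), and came first by the nearest gene, with 8 of 34 peaks (23.5%) and 8 of 17 genes (47.1%). Beside Bcl2l11, Ccnd1 (cyclin D1) had 3 members among 8 distal peaks, all upstream by 171, 172 and 282 kb and with H3K4me1. Cdk6, the kinase that D cyclins activate, had 3 among 5, at 42.6 and 192 kb upstream and 119 kb inside the gene. Fhl2, a LIM-domain cofactor, had 2 among 6. Bcl2 and Mcl1, both anti-apoptotic, had 1 each, with their centre in H3K4me1.

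Cytokine receptor genes had a member in 12 of 23 cases (52.2%), with 14 of 73 distal peaks (19.2%). Ifnar1 and Il10rb, neighbours that encode chains of the type I interferon and IL-10 receptors, shared 2 members, and in the peak at chr16:91447972-91448797 AP-1 and RUNX touched with no base between them. Il10ra had 2 among 4 at 16.9 and 37.3 kb downstream, both centred in H3K4me1, and Kit, the stem cell factor receptor, had 2 at 158 kb upstream and 230 kb downstream. Il2rb, a chain of the receptor for the IL-2 in which the cells were grown, had 1, at 27 kb upstream and centred in H3K4me1. Among cytokine genes, 8 of 23 had a member (34.8%), with 10 of 62 peaks (16.1%). Il10 had 2, at 9.18 kb upstream and 6.21 kb downstream, both centred in H3K4me1. Ifng, the signature cytokine of NKC, had 2 among 12, at 29.7 and 364 kb downstream. Ccl1 had 2 and Ccl5 had 1, inside the gene at 3.16 kb from its start. Tnf and Ltb shared 1 peak at chr17:35337174-35337951, which overlapped no H3K4me1 peak and held no RUNX match.

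The lymphocyte transcription factors had a member in 20 of 50 genes (40.0%), but 39 of the 300 distal peaks in their domains (13.0%) were members, below the 15.3% of all distal peaks. Beside Runx1, Eomes, a T-box factor of NKC, had 3 members among 8 distal peaks, at 103 and 114 kb upstream and 10.2 kb downstream. Id2, an inhibitor of E proteins needed for NKC, had 3 among 30, Irf8 had 3 among 13, all centred in H3K4me1, and Nfkb1 had 3. Runx3 itself had 2 among 13, at 18.3 kb upstream with 12 RUNX matches in the peak and 48.5 kb inside the gene, both centred in H3K4me1, and was chosen for mention after its values were seen. Signalling genes upstream of AP-1 had 12 of 30 (40.0%), with 16 of 110 peaks (14.5%). Zap70, a kinase of antigen and activating receptors, had 2, Plcg2, a phospholipase, had 2 at 103 and 153 kb upstream, Prkcb, a protein kinase C, had 2 inside the gene, and Map3k7 shared both of its members with Bach2.

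Genes of killing also had members. Of 33 NK receptor and cytotoxicity genes with a distal Runx3 peak, 7 had a member (21.2%, against 28.2% over all genes), and 10 of 81 distal peaks (12.3%, against 15.3%) were members. By the nearest gene, 6 of 30 (20%) had a member, beside 20.1% over all genes. Fasl, the ligand that triggers Fas, had 3 among 9, at 21.7, 53.5 and 156 kb downstream. Tigit had 2 among 5, at 33.7 and 38.0 kb upstream, and both overlapped H3K4me1. Gzmb, the protease granzyme B, had 1 among 7, at 22.3 kb upstream, and Fcgr3, the receptor CD16 for antibody, had 1 inside the gene. Feedback inhibitors had 8 of 29 genes (27.6%) and 10 of 110 peaks (9.09%), with 2 members for Dusp4, a phosphatase of MAP kinases, and 2 for Ubash3b, neither of which held a RUNX match. Trafficking and adhesion genes had 6 of 26 (23.1%) and 6 of 71 peaks (8.45%), 1 each for Cxcr4, Cxcr6, Itga2, Itgae, S1pr1 and Selplg. The TNF receptor family had 2 of 8 genes (25%) and 2 of 19 peaks (10.5%), below the shares over all genes and all distal peaks. These were Tnfrsf9 at 2.95 kb inside the gene and Tnfrsf1b at 3.27 kb upstream. Among genes of other lineages, 0 of 8 B cell genes, 0 of 5 neuronal genes and 1 of 7 liver genes (Foxa2) with a distal peak had a member. Their domains held only 9, 8 and 11 distal peaks, of which 0, 0 and 1 were members. These numbers are too small to set against the 15.3% of all distal peaks.

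**Figure D5:**
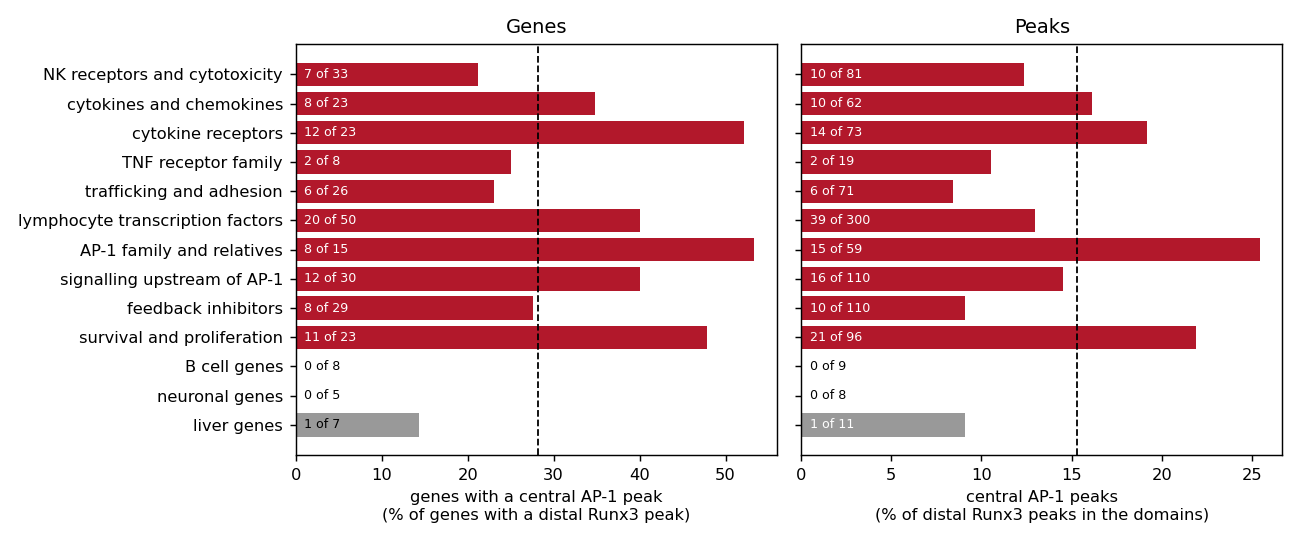
For each gene group, the share of genes with a distal Runx3 peak that have a central AP-1 peak in their domain (left, in %) and the share of distal peaks in those domains that carry central AP-1 (right, in %), with counts in the bars. Dashed lines are the shares over all genes (28.2%) and all distal peaks (15.3%), and grey marks genes of other lineages. By these domains AP-1 family genes are highest on both scales, at 53.3 and 25.4%, and transcription factors lie above the left line (40.0%) and below the right one (13.0%).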

How the data were processed

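ChIP-seq peaks of IL-2-activated splenic NKC were taken as deposited. ELAND was used by the authors for alignment to mm9, and reads with a unique position went jointly into MACS with NIS as control. The deposited values are peak starts and ends in bp, with no score. The antibody volume differs between labels and methods, as does the number of H3K4me1 repeats (1 library in the labels).

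Sequence and genes were those of NCBIM37 (mm9) with GENCODE M1, on 19 autosomes and chromosome X. AP-1 had to lie wholly in the central 200 bp. Overlap needed 1 bp. Shares were compared by Fisher's exact test, two-sided, and strands by an exact binomial test, with Benjamini-Hochberg adjustment within families of 7 features, 16 motifs, 6 contexts or 2080 6-mers, at 0.05. Intervals are 95% Wilson intervals. The 6-mer and context steps were tested on simulated data. The depth of the libraries limits which peaks were called and cannot be read from the lists. Named genes were the 10 with most members and up to 4 per group with most members, with ties by symbol. Others are named for context and were chosen after their values were seen. Sequences were shown for up to 2 members per gene group by the rule given beside them, none from chromosome 18, until 16 were reached, so that the feedback and the survival groups have none. The members, motifs and gene groups were chosen with earlier results of these data known. Equal masking and the comparison at 100 to 200 bp were added after seeing the data. Syk and Hras were not analysed here. Software was scipy 1.17.1, pysam 0.24.0, numpy 2.4.6, matplotlib 3.10.9, pandas 2.3.3 and Python 3.11.15.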

Additional observations from a re-analysis of the deposited data

How the results depend on the processing

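No paired analysis was possible because the peaks were called on the joined reads of the Runx3 libraries, and for the same reason no library could be left out. Whether the centre lay in a repeat was not run, since the genome sequence used does not mark repeats. As a substitute chosen after seeing the data, 62 members (4.65%) and 5.21% of other distal peaks shared a run of 24 bases with another distal peak centre.

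Alternatives were another distance or TSS set, another window, autosomes only, other comparison peaks, and limits on GC content and width. Members numbered 712 with the central 100 bp and 2051 with the central 400 bp. The narrower width lost its call with the central 400 bp (odds ratio 0.900), against peaks without AP-1 (0.852) and at 500 to 900 bp (0.882). The centre in H3K4me1 lost it at 5 kb (0.852), with the central 100 bp (0.827) and 400 bp (0.914), against peaks without AP-1 (0.864) and at 500 to 900 bp (0.877). The distance over 50 kb gained a call with protein-coding TSSs (1.18), and the position in genes with the central 400 bp (0.858). RUNX in the centre gained one with the central 400 bp (0.816) and in whole peaks (0.538). Motifs other than RUNX that passed numbered 0 at 5 kb and with the central 100 bp, and 2 with protein-coding TSSs and with the central 400 bp. The 6-mers that passed numbered 4 at 5 kb, 33 with protein-coding TSSs, 1 with the central 100 bp, 24 with the central 400 bp, 8 at 500 to 900 bp and 0 with either equal masking. With TGTGGT alone, the share of agreeing strands turned to 55.5% and that of nearer AP-1 was 44.5%, and the latter was 42.8% with the central 400 bp. Among values that did not pass under either setting, the direction also turned. These were H3K4me1 overlap with the central 400 bp (odds ratio 1.03) and at 500 to 900 bp (1.01), GC content at 5 kb (0.983) and with protein-coding TSSs (0.972), another Runx3 peak with the central 100 bp (1.02), and RUNX in the centre with either equal masking (1.09 and 1.08). The share of agreeing strands was 50.4% with the central 400 bp and 51.2% up to 50 bp, and that of nearer AP-1 was 50.4% with the central 100 bp and 50.2% at 45 to 55% GC. Of single motifs, NFAT turned at 5 kb (1.00) and with equal masking (1.01), and STAT at 5 kb (1.04), with protein-coding TSSs (1.01), at 500 to 900 bp (1.02) and with equal masking (1.07 and 1.09). KLF turned with the central 400 bp (1.05) and with equal masking (1.05 and 1.03), and NR4A (1.13) and CEBP (0.935) with the central 100 bp. Of the contexts, 0 passed against outer AP-1 matches, where CTGANTCAG turned to an odds ratio of 1.05. Genes with a member numbered 802 by the nearest TSS within 50 kb and 1234 with the central 100 bp. The cause of these changes was not tested, except that equal masking removes about as many bases from both sets. Of 128 such values under alternatives, 86 kept their direction and their side of the threshold, or stayed within 1.5 times the count.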
